A study of Sus scrofa with 8 samples.

Results

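The 8 interferon regulatory factor (IRF) genes IRF1, IRF2, IRF3, IRF4, IRF5, IRF7, IRF8 and IRF9 were followed in pig skin after an injection of interleukin 15 (IL-15). They were taken by symbol from the deposited count table, with 1 Ensembl gene for each, and make up 8 of its 31907 genes. The table holds 1 further IRF gene, which the rule did not include. The study used wild-type Yorkshire swine and looked for genes that respond to IL-15 in skin, to serve as readouts for a topical JAK inhibitor. In each of 2 animals, pig 13 and pig 14, 2 sites received IL-15 into the dermis, 200 ng per site in a saline volume of 100 µl, and were biopsied 3 h later, and 2 control sites were biopsied with no injection. The 4 injected biopsies came from sites 12d and 12c of pig 14 and 12e and 12c of pig 13, and the 4 control biopsies from sites 7e and 6b of pig 14 and 7b and 6b of pig 13. No site received saline alone, and injected and control sites carry different site numbers, so IL-15, the injection itself and the skin site cannot be told apart. Biopsies of 1 pig are not separate animals, and the p-values below measure the spread between sites within these 2 pigs.

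IRF proteins share a DNA-binding domain that recognises interferon-stimulated response elements. IRF3 and IRF7 are activated by phosphorylation downstream of nucleic acid sensors and switch on type I interferon genes, while IRF9 joins STAT proteins in the complex ISGF3, which carries the response to type I interferon. IRF1 is induced by interferon gamma and activates antigen presentation and chemokine genes, and IRF2 binds the same elements and was first described as its antagonist. IRF5 acts downstream of Toll-like receptors in myeloid and B cells. IRF4 and IRF8 are known mainly from lymphoid and myeloid cells, where they act with partners such as PU.1 and BATF. IL-15 itself acts through receptor chains that engage JAK1, JAK3 and STAT5.

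Sequencing depth was similar in the groups, with 28471089 to 36070107 counts per injected and 28730579 to 33567610 per control biopsy. Skin markers were present in every biopsy, with the basal keratin KRT5 at 3171 to 10850 CPM (read counts scaled to library size, here by TMM) and the collagen COL1A1 at 8115 to 102500 CPM. The pig 13 control biopsy from site 7b stood apart, with the lowest COL1A1, against 37280 CPM or more in the others, and the highest KRT5. The first principal component of the 1000 most variable genes held 60.2% of their variance and separated the animals.

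All 8 IRF genes are annotated as protein-coding in Sscrofa11.1, and all 8 passed the filter on low counts. IRF1 (ENSSSCG00000014277) lies on chromosome 2 from 134776134 to 134783646, minus strand, and IRF7 (ENSSSCG00000012853) on the same chromosome from 371606 to 375381, minus strand. IRF2 (ENSSSCG00000015782) lies on chromosome 15 from 45546779 to 45656928, minus strand, and IRF5 (ENSSSCG00000016573) on chromosome 18 from 19678686 to 19691154, minus strand. IRF3 (ENSSSCG00000003178) lies on chromosome 6 from 54701668 to 54707151, minus strand, and IRF8 (ENSSSCG00000034980) on the same chromosome from 3041645 to 3137549, minus strand. IRF4 (ENSSSCG00000033381) lies on chromosome 7 from 133364 to 149609, plus strand, and IRF9 (ENSSSCG00000002002) on the same chromosome from 75126609 to 75139639, minus strand. Counts were taken over the exons of each gene, and for IRF9 and IRF8 the annotation limits what a count means. The Ensembl model of IRF9 shares 2461 exon bases, 58.8% of its length, with REC8 on the same strand, and spans 13031 bases against 5842 in RefSeq. The model of IRF8 shares 465 exon bases, 16.8% of its length, with COX4I1 on the same strand, and spans 95905 bases against 19069 in RefSeq. IRF8 also shares 99 bases with EMC8, and IRF7 shares 88 with PHRF1, both on the opposite strand. How reads in shared exons were assigned, and whether strand was used, could not be learned from the labels or headers, so the levels of IRF9 and IRF8 are uncertain.

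Per length of transcript, IRF3 and IRF1 were the most abundant family members in this skin and IRF4 and IRF9 the least. The median over the 8 biopsies was 21.2 CPM per kilobase for IRF3 and 19.3 for IRF1, followed by 10.7 for IRF5, 8.66 for IRF7, 6.55 for IRF2 and 4.49 for IRF8. IRF4 had 0.639 and IRF9 0.349 CPM per kilobase. The places of IRF9 and IRF8 are uncertain, since it is not known how reads in their shared exons were assigned. The step from IRF8 to IRF4 was the only one between neighbours that kept its order in 8 of 8 biopsies. IRF3 was above IRF1 in 5 of 8, IRF1 above IRF5 in 6, IRF5 above IRF7 in 7, IRF7 above IRF2 in 6, IRF2 above IRF8 in 5 and IRF4 above IRF9 in 6. These neighbours changed places in at least 1 biopsy, and the differences between them were not tested.

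**Figure D1:**
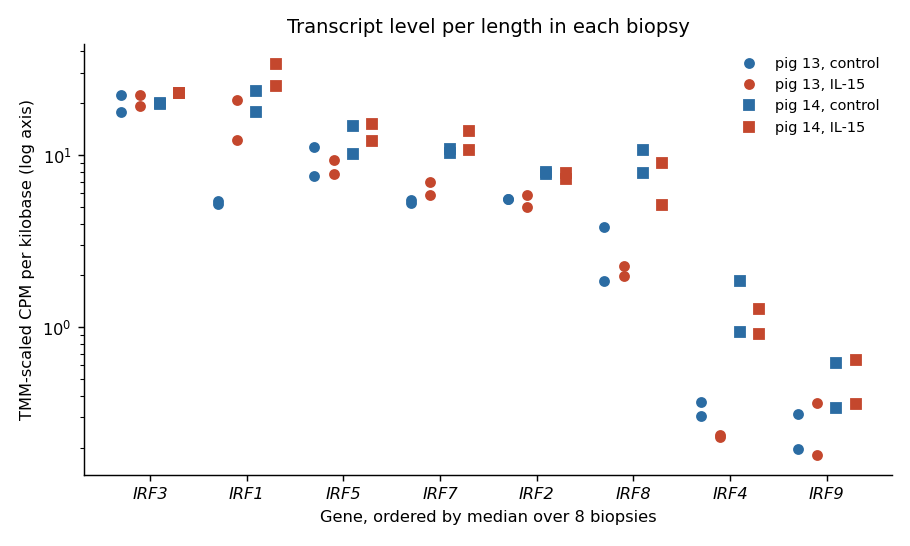
Transcript level per length of the 8 IRF genes, as TMM-scaled CPM per kilobase on a log axis, with 1 point per biopsy, ordered by the median over 8 biopsies. IRF3 stays within a narrow band from 17.8 to 22.9, while IRF1 runs from 5.21 to 34.0 and takes any rank from 1 to 5.

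IRF1 moved most in rank. By level per length it took ranks from 1 to 5 among the 8 genes, whereas IRF3 was at rank 1 or 2 in every biopsy. As a share of the summed CPM per kilobase of the 8 genes, IRF1 held 9.92% and 11.9% in the pig 13 controls and 23.1% and 30.8% in the pig 13 injected biopsies. In pig 14 its share was 23.3% and 26.3% in controls and 29.9% and 32.5% in injected biopsies.

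IRF1 was higher at the injected sites of both animals. In pig 13 it was at 13.2 (site 7b) and 12.8 CPM (6b) in controls and at 51.0 (12e) and 30.0 CPM (12c) in injected biopsies. In pig 14 it was at 43.3 (7e) and 57.6 CPM (6b) in controls and at 83.2 (12d) and 61.7 CPM (12c) in injected biopsies. Injected and control biopsies did not overlap within either pig, but across pigs they did, since the pig 13 injected biopsies reached no higher than the range of the pig 14 controls. IRF1 was the only one of the 8 genes with every injected biopsy above every control of its pig, a pattern shown by 3.11% of the 19862 genes tested. None of the 8 had all injected below all control biopsies of its pig, a pattern shown by 2.83%. No IRF gene had all 4 injected above all 4 control biopsies or the reverse, which held for 1.15% and 0.916% of tested genes.

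Over both pigs IRF1 was at 56.5 ± 22.2 CPM at injected sites and 31.7 ± 22.4 CPM at control sites (SD, n = 4). With the pig as a block, edgeR's quasi-likelihood test gave a log2 fold change of 1.07 ± 0.28 (SE, 95% confidence interval 0.42 to 1.73), a 2.10-fold difference within pigs, with an unadjusted p of 0.00566 and an adjusted p of 0.895. The test therefore did not call IRF1, while DESeq2, with 1.08 ± 0.25, did (adjusted p = 0.00903). None of the 8 genes was called by edgeR, which called 0.0352% of the tested genes higher and 0% lower. IRF1 was the only one with an unadjusted p under 0.05 in edgeR, where 2.39% of genes were higher and 2.15% lower at that level, and the only one called by DESeq2, which called 0.235% of genes higher and 0.045% lower. Without the pig 13 control from site 7b the log2 fold change of IRF1 was 0.94 ± 0.33 (adjusted p = 0.814 in edgeR).

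**Figure D2:**
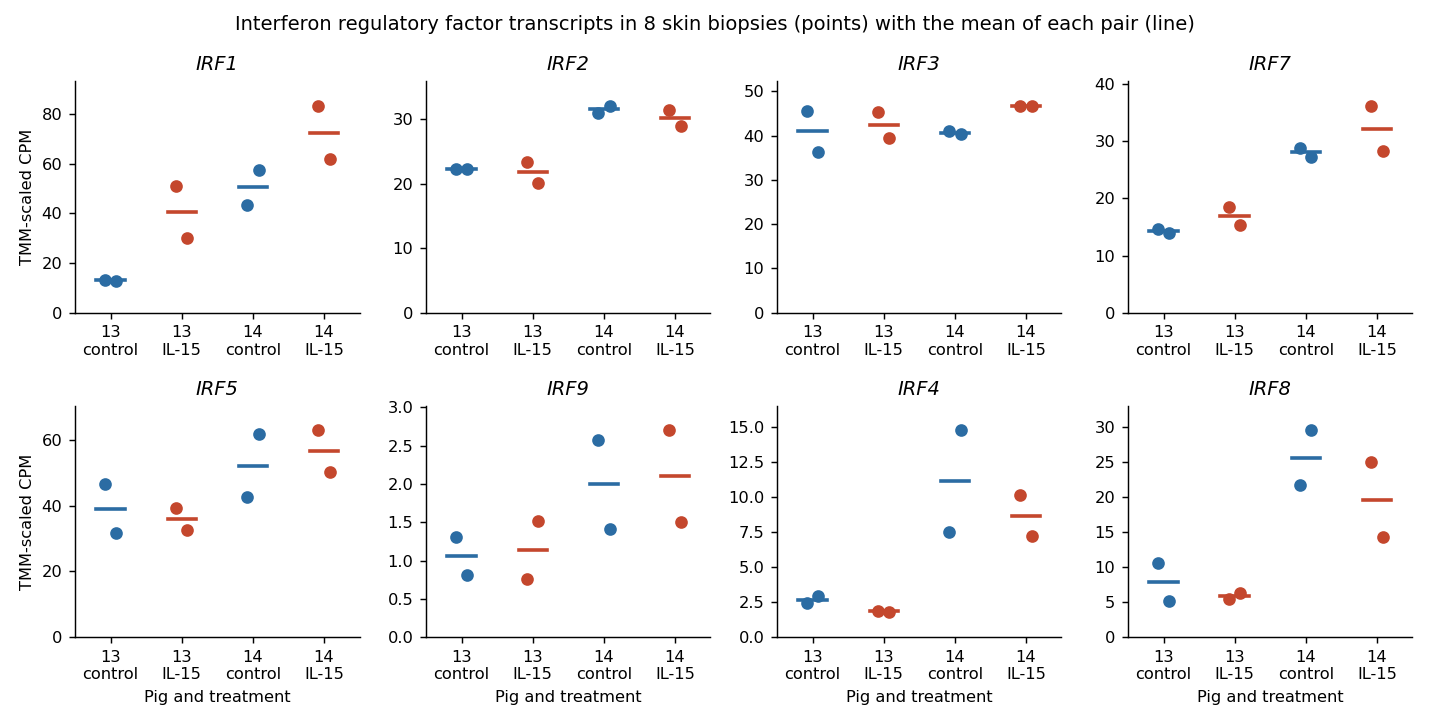
TMM-scaled CPM of each IRF gene by pig and treatment, with 1 point per biopsy, a line at the mean of each pair and its own vertical axis from 0 for each gene. Only IRF1 has both injected points above both control points in each pig, while IRF2, IRF7, IRF4 and IRF8 lie higher in pig 14 than in pig 13 whatever the treatment.

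The estimate for IRF1 was larger in pig 13 than in pig 14, though the difference between the animals was not called. Within pig 13 the log2 fold change was 1.64 ± 0.27, a 3.11-fold difference (adjusted p = 0.201 in edgeR), and within pig 14 it was 0.52 ± 0.26, a 1.44-fold difference (adjusted p = 0.767). No IRF gene was called within either pig by edgeR, which called 0.0201% of genes higher in pig 13 and 0.0252% in pig 14, and 0% lower in both. The interaction of pig and treatment was -1.12 ± 0.37 (95% confidence interval -1.98 to -0.25) with an unadjusted p of 0.0178 in edgeR. It was not called by edgeR (adjusted p = 0.517) or DESeq2 (adjusted p = 0.163), and it compares these 2 animals only. No IRF gene was called for the interaction by either tool, with IRF1 the only one at an unadjusted p under 0.05. Background shares there were 0% in each direction for edgeR, 3.81% higher and 4.41% lower at an unadjusted p under 0.05, and 0.174% higher and 0.421% lower for DESeq2.

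Among the 28 tested genes that IRF1 and interferon gamma are known to activate, CXCL10, a chemokine that draws activated T cells, had the same shape. It was picked by its small p for injected against control sites. The 28 genes together had a median log2 fold change of 0.00, with 14 positive. CXCL10 was at 0.656 and 1.03 CPM in the pig 13 controls and 17.1 and 12.3 CPM in the pig 13 injected biopsies, and at 16.1 and 19.7 against 51.9 and 22.0 CPM in pig 14. As for IRF1, the pig 13 injected biopsies came near the pig 14 controls and the pig 14 injected biopsies lay above both. The log2 fold change of CXCL10 over both pigs was 2.31 ± 0.71 (adjusted p = 0.964 in edgeR and 0.0831 in DESeq2). Its interaction was -3.08 ± 0.64, called by DESeq2 (adjusted p = 8.1e-06) but not by edgeR (adjusted p = 0.439), and CXCL10 was the only gene of all the pathway lists with an interaction that DESeq2 called.

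IRF2, which binds the same DNA elements as IRF1, differed little between injected and control sites. It was at 31.3 and 28.9 CPM in injected and 30.9 and 32.0 CPM in control biopsies of pig 14, and at 23.4 and 20.0 against 22.2 and 22.3 CPM in pig 13. Injected and control biopsies overlapped in both pigs, and the log2 fold change of -0.05 ± 0.09 had a 95% confidence interval of -0.25 to 0.15 (adjusted p = 0.973 in edgeR).

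The ratio of IRF1 to IRF2 reads within a library does not depend on how libraries are scaled. It was 0.595 and 0.572 in the pig 13 controls and 2.18 and 1.50 in the pig 13 injected biopsies. In pig 14 it was 1.40 and 1.80 in controls and 2.66 and 2.14 in injected biopsies. IRF2 reads thus outnumbered IRF1 reads only in the pig 13 controls, and within each pig both injected biopsies had the higher ratio. The log2 ratio was 1.05 ± 0.34 in injected and -0.06 ± 0.85 in control biopsies (SD, n = 4). Their difference of 1.11, a 2.16-fold change in the ratio, had an exact permutation p of 0.0556 (two-sided, labels permuted within each pig), the smallest that the 36 arrangements allow. It was 1.63 in pig 13 and 0.59 in pig 14.

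**Figure D3:**
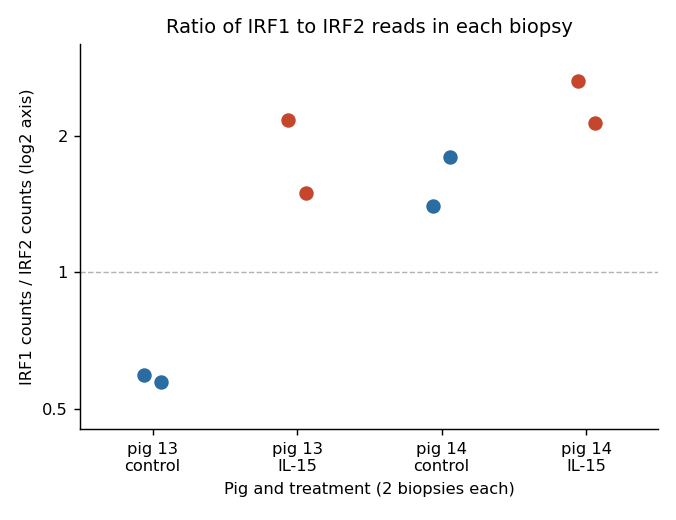
Ratio of IRF1 to IRF2 read counts in each biopsy, on a log2 axis, by pig and treatment with 2 biopsies each. The pig 13 controls lie at 0.595 and 0.572, below a ratio of 1 (dashed line), and the other 6 biopsies between 1.40 and 2.66.

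IRF3 and IRF7, the factors that respond to nucleic acid sensors, differed little between injected and control sites. IRF3 was at 46.7 and 46.7 CPM in injected and 41.0 and 40.4 CPM in control biopsies of pig 14, and at 45.4 and 39.4 against 45.7 and 36.4 CPM in pig 13. The groups were apart in pig 14 and overlapped in pig 13, with a log2 fold change of 0.12 ± 0.10 (95% confidence interval -0.10 to 0.34), which was 0.21 ± 0.09 without the pig 13 control from site 7b and 0.07 ± 0.10 without the one from 6b. IRF7 was at 36.2 and 28.2 CPM in injected and 28.8 and 27.3 CPM in control biopsies of pig 14, and at 18.4 and 15.4 against 14.6 and 13.9 CPM in pig 13. Here the groups were apart in pig 13 and overlapped in pig 14, with a log2 fold change of 0.22 ± 0.11 (95% confidence interval -0.02 to 0.47). Neither was called (adjusted p = 0.964 for both in edgeR).

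The 24 tested genes of the sensors, adaptors and kinases that activate these factors had a median log2 fold change of 0.02, beside -0.01 over all tested genes, with 0 called by edgeR or DESeq2 and 1 higher at an unadjusted p under 0.05. At that level in edgeR, 2.39% of all tested genes were higher and 2.15% lower. DDX58, the cytosolic RNA sensor RIG-I, had 0.80 ± 0.28, with injected biopsies at 1.21 to 1.87 CPM and controls at 0.687 to 1.20. The related sensor IFIH1 had 0.24 ± 0.12 and the Toll-like receptor adaptor TICAM1 0.23 ± 0.11. Of 8 interferon ligand genes in the table, 4 had enough counts to test and 0 were called by either tool or at an unadjusted p under 0.05. IFNB1, the interferon gene that IRF3 activates, had 0 to 2 counts per biopsy, and IFNG, the main inducer of IRF1, 0 to 6 counts. The keratinocyte interferons IFNE and IFNK had log2 fold changes of -0.66 ± 0.31 and -0.34 ± 0.38, and IL27, a cytokine of the interleukin 12 family, had 0.44 ± 0.54.

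IRF9 had the fewest counts of the family, with 23 to 78 per biopsy. It was at 2.70 and 1.51 CPM in injected and 2.58 and 1.41 CPM in control biopsies of pig 14, and at 0.756 and 1.51 against 1.31 and 0.816 CPM in pig 13. The groups overlapped in both pigs, and the log2 fold change of 0.09 ± 0.33 had a 95% confidence interval of -0.64 to 0.82. REC8, which shares exons with it, was at 2.55 to 6.09 CPM, and its part in the IRF9 counts was not tested.

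The partners and targets of IRF9 did not pass either. Over all tested genes 2.39% were higher and 2.15% lower at an unadjusted p under 0.05 in edgeR. The 14 interferon receptors, kinases and STAT genes had a median of 0.05, with 1 higher at an unadjusted p under 0.05 and 0 called by either tool. The receptor chain IFNAR2 had 0.58 ± 0.25, IL10RB 0.24 ± 0.17 and IFNGR2 0.17 ± 0.14. The 29 tested ISGF3 target genes had a median of 0.17, with 3 higher and 0 lower at an unadjusted p under 0.05 and 0 called by either tool. The largest values among those with the smallest p were 0.67 ± 0.26 for the ubiquitin-like ISG15, 0.65 ± 0.22 for the antiviral enzyme RSAD2 and 0.48 ± 0.20 for the nucleotide kinase CMPK2. The 28 tested IRF1 and interferon gamma targets had a median of 0.00, with 2 higher at an unadjusted p under 0.05 and 0 called by either tool. Beside CXCL10, the endothelial adhesion molecule VCAM1 had 0.78 ± 0.37.

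No difference in IRF5 was detected between injected and control sites. It was at 62.8 and 50.2 CPM in injected and 42.5 and 61.8 CPM in control biopsies of pig 14, and at 39.1 and 32.4 against 46.5 and 31.6 CPM in pig 13. The groups overlapped in both pigs. Its log2 fold change was -0.01 ± 0.16 (95% confidence interval -0.37 to 0.36, adjusted p = 0.998 in edgeR), and the sign turned in some alternative fits.

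IRF4 and IRF8, known mainly from lymphoid and myeloid cells, had lower mean values at injected sites, and neither was called. IRF4 was at 10.1 and 7.25 CPM in injected and 7.49 and 14.8 CPM in control biopsies of pig 14, and at 1.87 and 1.83 against 2.43 and 2.93 CPM in pig 13. The groups were apart in pig 13 and overlapped in pig 14, and the log2 fold change was -0.44 ± 0.23 (95% confidence interval -0.94 to 0.06). IRF8 was at 25.0 and 14.3 CPM in injected and 21.7 and 29.5 CPM in control biopsies of pig 14, and at 5.46 and 6.26 against 10.6 and 5.11 CPM in pig 13. The groups overlapped in both pigs, and the log2 fold change was -0.40 ± 0.25 (95% confidence interval -0.97 to 0.17). Adjusted p was 0.964 for both in edgeR. Without the pig 14 control from site 6b the value of IRF4 was -0.21 ± 0.23, and without the one from site 7e it was -0.63 ± 0.19, the ends of its range over the 8 fits that each left out 1 biopsy. Without the pig 13 control from site 7b the value of IRF8 was -0.17 ± 0.22, and over those fits it ran from -0.59 to -0.17. Neither was called in any of the 8, where the lowest adjusted p in edgeR was 0.748 for IRF4 and 0.597 for IRF8.

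**Figure D4:**
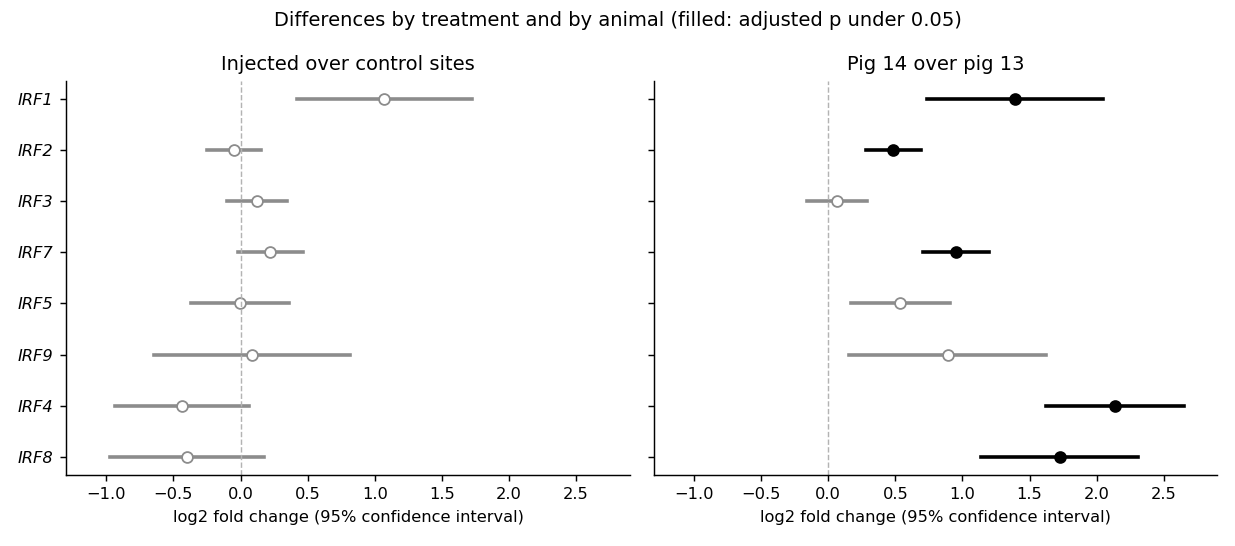
Log2 fold change of each IRF gene for injected over control sites (left) and for pig 14 over pig 13 (right), with 95% confidence intervals from edgeR and filled points where the adjusted p is under 0.05. No point is filled on the left, where only the interval of IRF1 excludes 0, and IRF1, IRF2, IRF7, IRF4 and IRF8 are filled on the right.

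Of the 16 tested partners of IRF4 and IRF8 and other lymphoid or myeloid regulators, 0 were called by either tool, with a median of 0.04 and 2 higher at an unadjusted p under 0.05. At that level in edgeR, 2.39% of all tested genes were higher and 2.15% lower. BATF3, an AP-1 factor that acts with IRF8 in dendritic cells, had a log2 fold change of 1.02 ± 0.27 (adjusted p = 0.807 in edgeR and 0.251 in DESeq2), and JUNB, its AP-1 relative, had 0.47 ± 0.13. The repressor BCL6 had 0.20 ± 0.10. The 15 tested corepressors and turnover factors of IRF proteins had a median of -0.03, with 0 at an unadjusted p under 0.05 and 0 called by either tool, where the IRF2-binding corepressor IRF2BP1 had 0.16 ± 0.09, the ubiquitin ligase STUB1 0.20 ± 0.10 and the deubiquitinase USP7 -0.11 ± 0.09.

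The list with the largest median was that of early genes of NF-kB and STAT3, transcription factors of the inflammatory response. This list, like the others, was chosen with earlier results of these data known, so its place among the lists is no independent support. Its 18 tested genes had a median of 0.50, with 0 called by edgeR and 4 called higher by DESeq2. At an unadjusted p under 0.05 in edgeR, 12 were higher and 0 lower, beside 2.39% and 2.15% of all tested genes. The 4 were the cytokine TNF (1.41 ± 0.24, adjusted p = 0.200 in edgeR and 0.000253 in DESeq2), the adhesion molecule ICAM1 (1.21 ± 0.27), the monocyte chemokine CCL2 (2.64 ± 0.54) and the cytokine IL6 (3.00 ± 0.61). The log2 fold change of IRF1, 1.07, lay above those of the other 7 IRF genes, which lay between -0.44 and 0.22. A link of IRF1 to these 18 genes was not tested.

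The clearest difference within the family was between the animals. Of the 8 IRF genes, 5 were called higher in pig 14 than in pig 13 and 0 lower by edgeR, which called 6.39% of all tested genes higher and 4.34% lower. IRF4 was 4.40-fold higher (log2 fold change 2.14 ± 0.23, adjusted p = 0.000516 in edgeR) and IRF8 3.30-fold (1.72 ± 0.26, adjusted p = 0.00467). IRF1 was 2.62-fold higher (1.39 ± 0.28, adjusted p = 0.0215), IRF7 1.94-fold (0.95 ± 0.11, adjusted p = 0.000764) and IRF2 1.40-fold (0.49 ± 0.09, adjusted p = 0.00858). With 1 animal on each side, these values describe pig 13 and pig 14 and no wider group of animals.

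For IRF2, IRF7, IRF4 and IRF8 every pig 14 biopsy lay above every pig 13 biopsy, a pattern shown by 9.87% of tested genes, and no IRF gene had the reverse, shown by 8.73%. IRF4 ran from 1.83 to 2.93 CPM in pig 13 and from 7.25 to 14.8 CPM in pig 14, and IRF7 from 13.9 to 18.4 and from 27.3 to 36.2 CPM. IRF1 overlapped, since its pig 13 injected biopsy from site 12e exceeded the pig 14 control from site 7e. The other 3 genes were not called, with 0.54 ± 0.16 for IRF5 (adjusted p = 0.0645), 0.89 ± 0.33 for IRF9 (adjusted p = 0.114) and 0.06 ± 0.10 for IRF3 (adjusted p = 0.735, 95% confidence interval -0.16 to 0.29) in edgeR. DESeq2 called 6 of the 8 higher, with IRF5 added (adjusted p = 0.0325), beside 8.12% of genes higher and 5.77% lower.

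The animal difference was examined within each treatment after its overall values were seen. Among the 4 control biopsies edgeR called the same 5 IRF genes, where 4.83% of genes were called higher and 3.07% lower. Among the 4 injected biopsies it called IRF4 (2.23 ± 0.34, adjusted p = 0.0128) and IRF7 (0.93 ± 0.16, adjusted p = 0.0215), where 1.19% of genes were called higher and 0.675% lower. IRF8 and IRF2 were not called there (adjusted p = 0.086 and 0.114), with differences of 1.74 ± 0.40 and 0.47 ± 0.13, beside 1.70 ± 0.39 and 0.50 ± 0.13 among the controls. IRF1 differed by 1.96 ± 0.27 between the control biopsies of the animals (adjusted p = 0.0081) and by 0.84 ± 0.26 between their injected biopsies (adjusted p = 0.172). The difference between these is the interaction given above. The overall call of IRF1 was lost in 6 of 12 alternative fits, with adjusted p up to 0.0743 without the pig 13 control from site 7b. The others were the fit without the filter on low counts and those leaving out the injected biopsies of sites 12d (pig 14) or 12c (pig 13), the pig 14 control from 7e or the pig 13 control from 6b. IRF2, IRF7, IRF4 and IRF8 were called in all 12, and IRF5 was also called without the pig 14 control from 7e or the pig 13 control from 7b (adjusted p = 0.0173 for the latter).

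Interferon target genes differed between the animals beside the IRF genes. Of the 28 tested IRF1 and interferon gamma targets, 17 were called higher in pig 14 and 0 lower, with a median log2 fold change of 1.02 beside -0.0024 over all tested genes. Over all tested genes edgeR called 6.39% higher in pig 14 and 4.34% lower. The genes named here and in the next paragraph for this comparison were picked with their values known. The chemokine CXCL9 ran from 1.09 to 2.00 CPM in pig 13 and from 30.1 to 56.2 CPM in pig 14 (log2 fold change 4.88 ± 0.28). The tryptophan-degrading enzyme IDO1 had 4.36 ± 0.35, the immunoproteasome subunit PSMB8 1.44 ± 0.14 and NLRC5, the activator of MHC class I genes, 1.20 ± 0.11. Of the 29 ISGF3 targets, 21 were called higher and 1 lower, with a median of 0.98. The lower one was OAS1, an RNA-sensing synthetase, at 5.74 to 12.3 CPM in pig 13 and 1.03 to 2.18 CPM in pig 14 (-2.54 ± 0.26, adjusted p = 0.000362 in edgeR). Of the 14 receptor, kinase and STAT genes, 3 were called higher and 0 lower, among them STAT2 (0.49 ± 0.14) and the receptor kinase TYK2 (0.37 ± 0.10).

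Of the 24 sensors, adaptors and kinases, 6 were called higher in pig 14 and 0 lower, among them ZBP1 and TLR3, both nucleic acid receptors, at 1.69 ± 0.15 and 0.99 ± 0.16. Of the 16 partners and regulators, 5 were called higher and 0 lower, among them SPI1, which encodes PU.1 (0.70 ± 0.15), BATF3 (1.28 ± 0.27) and IKZF1 (1.40 ± 0.26). IFN-ALPHA-8 was the only 1 of 4 tested ligands called higher. The 15 corepressors and turnover factors had a median of 0.02, with 2 called higher and 0 lower, and the 18 NF-kB and STAT3 genes a median of 0.01, with TNF called higher and 0 lower. Beside these counts, edgeR called 6.39% of all tested genes higher in pig 14 and 4.34% lower.

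**Figure D5:**
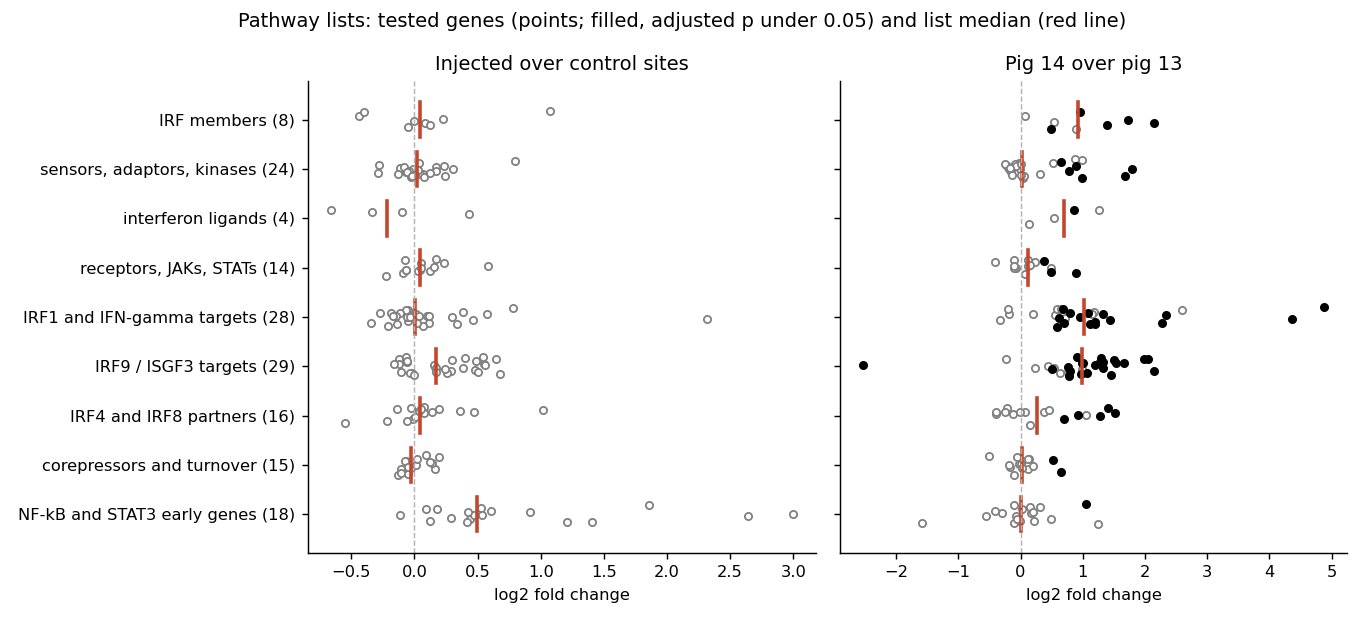
Log2 fold change of each tested gene in 8 pathway lists and in the IRF family (points, filled where the edgeR adjusted p is under 0.05) with the median of each list (red line), for injected over control sites (left) and pig 14 over pig 13 (right). On the left no point is filled and the list of NF-kB and STAT3 genes has the largest median, 0.50, and on the right the target lists of IRF1 and of ISGF3 have medians of 1.02 and 0.98. The lists were chosen with earlier results of these data known.

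IRF4, IRF5 and IRF8 are known mainly from lymphoid and myeloid cells. Some markers of these cells were called higher in pig 14, others were not, and 6.39% of all tested genes were called higher there. In whole biopsies, fewer cells of a type and less RNA per cell cannot be told apart. The summed level of 10 T cell markers was 9.85 to 17.5 CPM in pig 13 and 26.6 to 53.5 CPM in pig 14, with 6 of 9 tested genes called higher, among them CD3E (1.88 ± 0.28) and CD3D (1.55 ± 0.30), while CD3G had 0 to 1 counts. The sum of 10 B and plasma cell markers was 11.5 to 16.0 against 16.3 to 23.5 CPM, with 3 of 10 called higher, where MS4A1 had 1.64 ± 0.48 (adjusted p = 0.0549 in edgeR) and CD79A 0.00 ± 0.19. The sum of 11 monocyte and macrophage markers was 376 to 654 against 668 to 1147 CPM, with 2 of 10 called higher, among them CSF1R (0.63 ± 0.17), while CD14 had -0.02 ± 0.22, CD68 -0.11 ± 0.16, and LYZ was at 0 in every biopsy. The sum of 8 dendritic and Langerhans cell markers in the table was 53.1 to 60.3 against 71.7 to 91.6 CPM, with 4 of 8 called higher, among them XCR1 (1.81 ± 0.38). The part of these markers in the difference of the IRF genes was not tested.

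Markers of other skin cells did not all move this way. The sum of 10 keratinocyte markers was 19454 to 38958 CPM in pig 13 and 12652 to 19494 CPM in pig 14, with KRT5 called lower (-0.89 ± 0.25), and the sum of 8 fibroblast markers was 19289 to 109264 against 136678 to 192708 CPM, with 1 called higher. Neutrophil markers summed to 74.0 to 449 against 85.0 to 134 CPM, endothelial markers to 763 to 966 against 715 to 1115 CPM and melanocyte markers to 133 to 159 against 112 to 142 CPM. Between injected and control sites no marker of these 9 lists was called by edgeR, and DESeq2 called 1, the endothelial ACKR1, higher. At an unadjusted p under 0.05 in edgeR, 3 endothelial markers and 1 melanocyte marker were higher, and 3 keratinocyte markers and 1 each of T cells, B cells and neutrophils were lower. Of all tested genes 2.39% were higher and 2.15% lower at that level. T cell markers summed to 12.9 to 45.7 CPM at injected and 9.85 to 53.5 at control sites, beside the values of IRF4 and IRF8 given above.

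Values of the genes that share exons with IRF8 and IRF9 are given beside theirs as estimates with no call made on them, and the part of shared reads in the differences was not tested. COX4I1 was at 48.3 to 70.6 CPM with a log2 fold change of -0.20 for pig 14 over pig 13, and EMC8 at 1.11 to 4.51 CPM with -1.19, where IRF8 had 1.72. REC8, which shares exons with IRF9, had 0.49 where IRF9 had 0.89.

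Across the 8 biopsies the log2 CPM of IRF4 and IRF8 went together (r = 0.93), and so did IRF2 and IRF4 (r = 0.95) and IRF2 and IRF7 (r = 0.94). These points share the difference between the animals and the scaling of the libraries. With each pig's mean removed, r fell to 0.50 for IRF4 and IRF8, 0.50 for IRF2 and IRF4 and 0.29 for IRF2 and IRF7. The pair that stayed highest was IRF1 and IRF7, with r of 0.87 before and 0.80 after removal, followed by IRF5 and IRF8 with 0.88 and 0.68. For IRF1 and IRF4 r was 0.62 before and -0.37 after.

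The genes most like each IRF gene were sought by the same measure, the correlation of log2 CPM with each pig's mean removed, over 8 biopsies and 13589 genes with a mean of at least 1 CPM. With 8 biopsies and this many genes, high values of r are found for any gene, and they are given as a description only. The closest to IRF1 were ZNFX1 (r = 0.99), TSSC4 (0.99) and RASD1 (0.98). The closest to IRF7 were TMEM222 (0.96), NFKBIA (0.96) and TOMM34 (0.96), of which NFKBIA encodes the inhibitor of NF-kB and had a log2 fold change of 0.53 ± 0.13 at injected sites (adjusted p = 0.746 in edgeR). The closest to IRF5 were GPR35 (0.98), SUSD1 (0.97) and NRROS (0.96), and to IRF8 NDRG3 (0.99), GLO1 (0.98) and SKAP1 (0.97). The closest to IRF4 were ARHGAP44 (0.97), PHF20 (0.96) and SMIM8 (0.95), and to IRF3 APEX2 (0.99) and GPR137 (0.98). The closest to IRF2 were FASTKD3 (0.95) and USP46 (0.94), and to IRF9 ZBTB37 (0.99), GPD1L (0.96) and PEX2 (0.95). None of these genes was called between injected and control sites by edgeR or DESeq2.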

How the data were processed

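RNA of 8 skin biopsies was measured by sequencing of ribosome-depleted total RNA, per the labels' protocols. The build Sscrofa11.1 and the tools STAR 2.5.1a, Subread's featureCounts 1.4.6-p5 and bcl2fastq are listed in the submitters' processing notes. The authors deposited read counts per Ensembl gene for the series, and files per biopsy with counts, CPM and RPKM, per the file headers. The deposited CPM and RPKM matched the counts and the gene lengths and entered no test. The deposited file of the pig 13 control from site 7b held 607 complete genes, all with counts equal to the series table, so every biopsy was read from that table. Its 32388 lines held 31907 genes, and the 425 genes on several lines, with identical counts, were kept once. Of these genes 18297 had a symbol, 16681 from the table, 822 by Ensembl ID from a list of names and 794 from RefSeq genes of Sscrofa11.1.

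Genes were kept by filterByExpr (minimum count 10) in edgeR 4.0.16 with R 4.3.3, which left 19862, and scaled by TMM. Pig and treatment, or both with their interaction, were fitted by the robust quasi-likelihood method of edgeR. Calls needed a Benjamini-Hochberg adjusted p, over all genes tested, under 0.05. Standard errors follow from the log2 fold change and F. The biological coefficient of variation was 19.8%. DESeq2 1.42.0, RLE size factors, no filter on low counts, no robust estimation, no block and leaving out each biopsy were run as alternatives. The procedure was tested on simulated data for injected against control sites, with 100 genes changed by a log2 of 1 and 100 by 2. It recovered 77 of the former and 97 of the latter, with 19 false calls. The simulated counts varied as the fit assumes, and far more genes were changed than the 7 called in the data. With more changed genes the adjustment lets larger unadjusted p pass, so these recoveries do not carry over to the data.

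The pig is a block because the labels name the animal of each biopsy. As a check, each biopsy was set against its group's mean: such deviations had r from 0.28 to 0.53 for an injected and a control biopsy of 1 pig, and from -0.48 to -0.30 for different pigs. Deviations from a group's mean cancel within the group, so the negative values follow from the positive ones and are no separate evidence. Every pair of biopsies differed by more than sampling noise.

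The members and the gene lists (8 of pathway genes and 9 of markers, with 258 symbols) were chosen with earlier results of these data known. The text names all 8 members and, per pathway list, the 3 genes with the smallest edgeR p for injected against control sites and any called by edgeR or DESeq2. It also names the first markers of each list where a result is beside them, and the 3 genes most alike to each member, from log2 CPM with 0.5 added to each count. Some genes that this rule takes are not reported here. Sequences of the members are not used here.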

Additional observations from a re-analysis of the deposited data

How the results depend on the processing

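DESeq2 called 1 IRF gene between injected and control sites, IRF1, where edgeR called 0, and 56 genes in all where edgeR called 7, a count that ran from 3 to 19 when 1 biopsy was left out, with 19 without the pig 13 control from site 7b. The log2 fold change of IRF1 ran from 0.80 to 1.28 with 1 biopsy left out, and with no replicate block, that is without the pig in the model, it was 0.83 and 6 genes were called. The sign of IRF5 turned with no replicate block (0.0167) and, with 1 biopsy left out, its value ran from -0.12 to 0.14 and that of IRF9 from -0.13 to 0.30. IRF2, IRF3, IRF7, IRF4 and IRF8 kept their sign for injected against control sites in the 13 alternatives run, but with 1 biopsy left out IRF2 ran from -0.10 to -0.01, IRF3 from 0.07 to 0.21, IRF7 from 0.16 to 0.30, IRF4 from -0.63 to -0.21 and IRF8 from -0.59 to -0.17. For the interaction of pig and treatment DESeq2 called 89 genes, the fit without a filter on low counts 8, and fits without 1 biopsy 0 to 313, with 313 without the pig 13 control from site 6b, and no IRF gene in any of them. The interaction of IRF1 stayed negative, from -1.45 to -0.68. With 1 biopsy left out, that of IRF2 ran from -0.13 to 0.089, IRF3 from -0.0233 to 0.31, IRF7 from -0.21 to 0.14, IRF5 from -0.0629 to 0.55, IRF9 from -0.49 to 0.57, IRF4 from -0.20 to 0.76 and IRF8 from -0.58 to 0.47. Between the animals 2133 genes were called, and 1142 to 2240 with 1 biopsy left out. Within the injected biopsies, a comparison added after seeing the data, 371 genes and 2 IRF genes were called. The difference in the log2 ratio of IRF1 to IRF2 ran from 0.86 to 1.41 with 1 biopsy left out. The causes of these shifts were not tested. A fit without 1 biopsy leaves 1 arm of a pig with a lone sample, assumed to vary like the others. IRF9 had 23 to 78 counts per biopsy, and the part of depth in its spread was not tested.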
